A study of Mus musculus with 2 samples.

Results

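Ductal epithelial cells, the cells that line the branching ducts of the exocrine pancreas, were examined in 2 single-cell libraries made from handpicked mouse islets. They were selected on their own counts. A barcode was taken when it held at least 500 genes, at most 10% mitochondrial UMIs, under 10% of UMIs from 7 islet hormone genes (Ins1, Ins2, Gcg, Sst, Ppy, Pyy and Iapp), at least 1 Epcam UMI, at least 5 UMIs summed over Krt19, Krt7, Sox9, Muc1 and Cftr, and under 1% of UMIs from Ghrl. A UMI, or unique molecular identifier, marks 1 captured mRNA molecule at its 3′ end. The rule found 175 members among 13446 barcodes within the gene and mitochondrial limits, out of 15081 deposited. There were 77 members among 7100 barcodes of the WT library and 98 among 6346 of the GKO library.

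The WT library came from wild-type mice and the GKO library from littermates lacking the ghrelin gene, all C57BL/6N animals of 8 weeks on standard chow. Islets of 4 mice per genotype were pooled after collagenase was injected through the bile duct, and live single cells were sorted. Each genotype is therefore 1 library, and the pooled mice cannot be separated. No test between genotypes was possible. Differences are given as ratios with 95% intervals that cover counting error only, and differences between mice, pools or library preparations cannot be told apart from genotype. The WT library held 158067110 UMIs and the GKO library 103511757, but the members had a like median depth, of 14262 UMIs in WT and 14645 in GKO. The deepest member held 88937 UMIs in WT and 43289 in GKO. Members summed to 1536688 UMIs in WT and 1589448 in GKO, so a few deep WT members weigh more in the sums. Libraries shared 18 barcode sequences, 1 of which was a WT member and none a GKO member.

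Duct epithelium drains acinar enzymes and adds a bicarbonate-rich fluid to them. Secretin and purinergic receptors raise cAMP or calcium, the CFTR chloride channel and bicarbonate carriers of the Slc4 and Slc26 families move the ions, and aquaporins let water follow. Sox9, Onecut1 and Hes1 are transcription factors known from duct and progenitor cells of the pancreas, primary cilia on the apical face sense flow, and larger ducts add mucins, trefoil factors and antimicrobial proteins. Ghrelin is a peptide hormone best known from the stomach and from rare islet cells, and Ghsr encodes its receptor.

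The deleted gene was checked first. Ghrl had 43634 UMIs in the whole WT library and 280 in the whole GKO library, 276 of which lay in a single barcode. Ductal members held 14 Ghrl UMIs in WT, in 10 of the 77 members and with at most 3 in any of them, and 0 in GKO. A count of 0 in the GKO members allows up to 1.89 CPM (UMIs of the gene per 1000000 UMIs of the members). In WT Ghrl was at 9.11 CPM in the members. It was at 4.01, 3.10 and 4.715 CPM in the WT endocrine, stromal and endothelial cells defined below. Whether the UMIs of the members were free RNA was not tested. Ghsr had 0 UMIs in the WT members and 1 in the GKO members, and Mboat4, the enzyme that acylates ghrelin, had 0 in both. At most 1 UMI of the ghrelin receptor was thus found in the ductal cells of either library at this depth.

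Of the genes the rule did not use, Spp1 was the most abundant listed secreted product of the GKO members. Spp1 encodes osteopontin, a secreted phosphoprotein of duct epithelium, and its promoter is printed because the gene both separated these cells from their neighbours and differed between the libraries. The sequence is RefSeq's for build GRCm38.p6, chr5:104434861-104435160 on the plus strand, from 250 bases before to 50 after a start site, and is the first by position of 2 entries for the gene. The capital marks the first base after the 250 upstream bases.

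Spp1 promoter: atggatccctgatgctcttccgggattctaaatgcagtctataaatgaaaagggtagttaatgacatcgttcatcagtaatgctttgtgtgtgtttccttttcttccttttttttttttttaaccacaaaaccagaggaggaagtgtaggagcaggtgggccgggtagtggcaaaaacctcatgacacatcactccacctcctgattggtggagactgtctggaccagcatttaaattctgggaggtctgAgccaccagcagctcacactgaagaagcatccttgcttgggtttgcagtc

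TGANTCA, the AP-1 motif, searched on both strands, had no match in this window. It stood in 7.81% of 32851 RefSeq promoters of this length, and in 9.28% of the 194 promoters listed for 150 of the 220 genes set apart below. A match is only a description of the sequence.

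The genes that chose the members are given as a description, since the rule used their UMIs. Krt19, an intermediate filament keratin of simple epithelia, was at 1620 CPM in WT and 1565 in GKO members. It was found in 93.5% of WT and 96.9% of GKO members, against 1.23% and 1.00% of endocrine cells (hormones at least 10% of UMIs) and 0.458% and 2.29% of stromal cells (no Epcam, at least 5 UMIs of collagen, Pdgfr and Rgs5 transcripts). Median depth was 19680 and 14470 UMIs in endocrine cells and 6676 and 6846 in stromal cells of WT and GKO. After thinning each cell to 2000 UMIs the shares with Krt19 were 81.8% and 88.8% of ductal members and 0.268% and 0.147% of endocrine cells. Sox9 was at 315.6 and 449.2 CPM, and Muc1, an apical mucin, at 291.5 and 241.6 CPM. Krt7 was at 341.6 and 293.2 CPM, and 85.2% of WT and 77.8% of GKO endocrine cells also held a Krt7 UMI. Cftr was sparse, with 46 UMIs in WT and 11 in GKO, found in 33.8% and 10.2% of members.

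In all, rule genes included, 220 of 2857 genes at 50 CPM or more in ductal members of both libraries, 7.70%, stood at least 4-fold above both endocrine and stromal cells in both libraries. These counts also chose the members, so no test applies. Several of them encode secreted antimicrobial and mucosal products. Dmbt1, a scavenger receptor protein of mucosal fluids, was at 5148 CPM in WT and 1047 in GKO members, against 7.25 and 1.27 CPM in endocrine and 0.619 and 2.11 in stromal cells. Lcn2, the iron-siderophore binding lipocalin, was at 2430 and 1860 CPM, with 86.9% and 94.7% of its UMIs in the highest 10% of members. Spink4, a protease inhibitor of mucus-secreting epithelia, was at 1446 and 718.5 CPM. Wfdc2 and Wfdc18, small secreted whey acidic proteins, were at 618.2 and 543.0 and at 782.9 and 205.7 CPM. Pglyrp1 and Ltf, which bind bacterial peptidoglycan and iron, were at 449.7 and 307.0 and at 208.9 and 217.7 CPM, with Ltf in 20 WT and 9 GKO members. The chemokine Cxcl5 was at 297.4 CPM in WT and 363.6 in GKO, although only 24.7% and 9.18% of members held it. A single member held 49.2% of its WT UMIs, and another 20.4% of its GKO UMIs.

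The remaining leaders were of other kinds. Tstd1 was found in 84.4% of WT and 92.9% of GKO members, at 322.1 and 409.6 CPM. Plet1, a surface protein of epithelial progenitors, was at 508.2 and 514.6 CPM. Kcne3, a subunit that opens basolateral potassium channels in secretory epithelia, was at 137.3 and 136.5 CPM and at or below 0.343 CPM in endocrine cells. Mmp7, a matrix metalloprotease, was at 193.3 and 110.1 CPM, and Cldn8, a tight junction claudin, at 112.6 and 106.3. Spp1 was at 4976 CPM in WT and 10142 in GKO, in 81.8% and 96.9% of members. Endocrine cells had Spp1 at 57.2 and 85.6 CPM and stromal cells at 4.02 and 2.39, so that the smallest fold, with 1 CPM added, was 85.6.

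**Figure D1:**
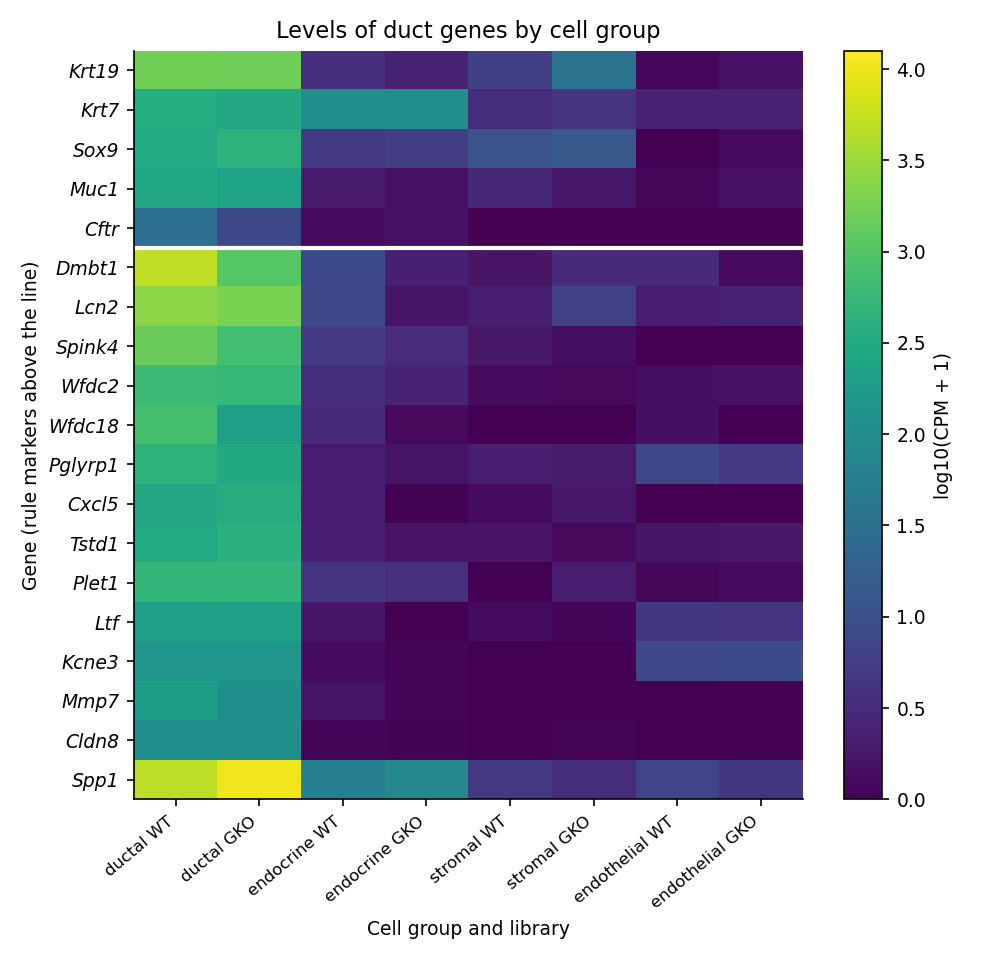
Levels, as log10(CPM + 1), of the 5 rule markers (above the white line) and of genes far above endocrine and stromal cells, in summed UMIs of each cell group and library. The genes below the line are at 106 CPM or more in both ductal columns, and Krt7 is the rule marker with visible signal in endocrine cells.

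The label did not hold for every member. Ward clustering of the 175 members into 6 clusters, made from 1000 variable genes after the data were seen, left 156 in 3 larger clusters that carried duct genes and 19 in 3 small clusters led by other transcripts. Clusters are named here by number and leading genes. Cluster 4 had 7 members, 4 WT and 3 GKO, led by Pcsk1n, Pcsk2 and Chga, genes of endocrine secretory granules. None of the 7 held a Krt19 UMI and all 7 held Krt7, and hormones took 4.16% to 9.99% of their UMIs. Cluster 5 had 7 members, all WT, led by Sct, which encodes secretin, with Prap1, Rbp2, Fabp1 and Lypd8, genes known from intestinal epithelium. All 7 held Krt19, none held Spp1, and their Sct level was 42274 CPM. In 4 of these 7 members Sct ran from 418 to 2319 UMIs with Tph1 and Chgb beside it, while the other 3 held at most 1 Sct UMI and carried Fabp1 and Rbp2. Cluster 6 had 5 members, 4 WT and 1 GKO, led by the acinar enzyme genes Try5, Prss2 and Ctrb1, with acinar markers at 7.58% to 67.1% of the UMIs of each.

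The 3 larger clusters, 62 WT and 94 GKO members, differed in which duct genes they carried. Cluster 1 (19 WT, 74 GKO) was led by the matrix protein gene Fbln2, with Adam33, Pdpn, Tsc22d3, Sparc and Igf1. All 93 of its members held Krt19 and 89 held Sox9, Spp1 was at 8636 CPM in WT and 9768 in GKO, and Bicc1, a cilium-linked RNA-binding protein, at 942.6 and 935.8. Cluster 2 (34 WT, 9 GKO) was led by Spink4, Cxcl5, Ly6d, Tff3, Lcn2, Ltf and Dmbt1. Dmbt1 was at 9630 CPM in WT and 11879 in GKO there, in all 43 members, against 122 and 152.6 CPM in cluster 1, and Spp1 at 2676 and 3221. Cluster 3 (9 WT, 11 GKO) was led by the lipoprotein genes Apoc1 and Apoe with Cldn10, Cbs and Ccnd1, and had the highest Spp1 of the 6, at 19747 CPM in WT and 30881 in GKO, beside Krt19 at 522.9 and 508.6, below clusters 1 and 2. Since each genotype is 1 library, the sizes of the clusters are not compared between genotypes, and a cluster mostly of 1 library may be a feature of that library.

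**Figure D2:**
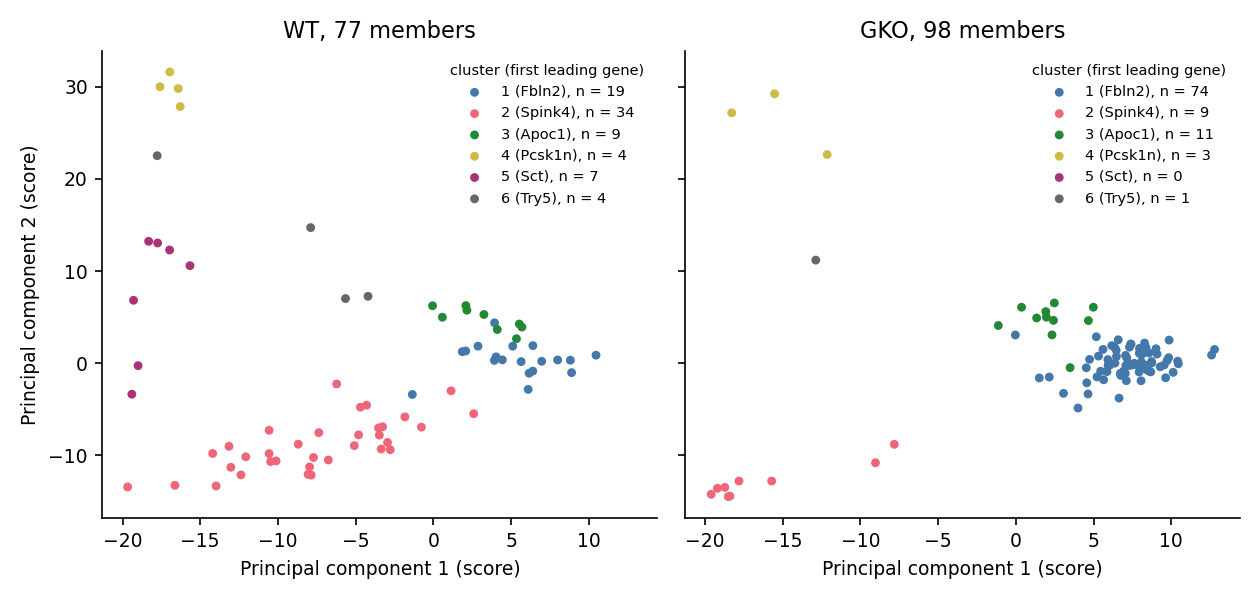
The 77 WT and 98 GKO members on the first 2 principal components (scores, no unit) of 1000 variable genes, each point 1 member coloured by cluster. Cluster 2 is the largest among WT members (34 of 77) and cluster 1 among GKO members (74 of 98), and the 19 members of clusters 4 to 6 lie apart.

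The WT library had 5 members with 5 or 6 duct marker UMIs and 12 barcodes just outside with 3 or 4, and the GKO library had 5 and 10. Of the 5 WT members 4 were in cluster 4 and 1 in cluster 6, and of the 5 GKO members 2 were in cluster 4, 1 in cluster 6 and 2 in cluster 3. Spp1 was at 16.4 CPM in the 5 WT members, with a UMI in 1 of them, and at 7445 CPM in the 5 GKO members, where the 2 members of cluster 3 held 640 and 285.6 per 10000 UMIs. Chga was at 11813 CPM in WT and 2898 in GKO, and the acinar gene Ctrb1 at 20751 CPM in 3 WT and 38977 CPM in 2 GKO members with a UMI. The barcodes just outside had Spp1 at 0 CPM in WT and 130 CPM in GKO, with Chga at 20948 and 30560 CPM. By hormone share, 6 WT and 2 GKO members lay just inside the limit, at 5% to 10%, and 9 and 4 barcodes that met the other limits lay just outside, at 10% to 15%. A further 1139 WT and 496 GKO barcodes met the other limits with hormones at 15% of UMIs or more.

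Members made up 1.08% of the WT barcodes within limits (exact Clopper-Pearson 95% interval 0.857% to 1.35%) and 1.54% of the GKO barcodes (1.26% to 1.88%). The order turned when only barcodes with hormones under 10% of UMIs were counted, at 5.13% (4.07% to 6.37%) of 1502 in WT and 4.33% (3.53% to 5.26%) of 2261 in GKO. Handpicking, sorting and the number of other cells can set such shares, and the intervals overlapped in both counts. For the 3 larger clusters described above, chosen after the data were seen, the shares were 0.873% (0.670% to 1.12%) and 1.48% (1.20% to 1.81%), whose intervals did not overlap. These intervals cover counting error in 1 library each, so no difference between genotypes is read from them.

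Comparing GKO with WT members over all 10195 genes with at least 20 UMIs, 474 genes, 4.65%, were at least 2-fold higher in GKO with an interval that left out 1, and 404, 3.96%, were at least 2-fold lower. The median log2 ratio over all genes was 0.12, and TMM scaling, which moved that median to 0.01, gave 356 higher and 485 lower. Within the 3 larger clusters 402 of 9713 genes were higher (4.14%) and 284 lower (2.92%). The shared part was 335 genes among the higher, which is 70.7% of 474 and 83.3% of 402, and 222 among the lower, 55.0% of 404 and 78.2% of 284.

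**Figure D3:**
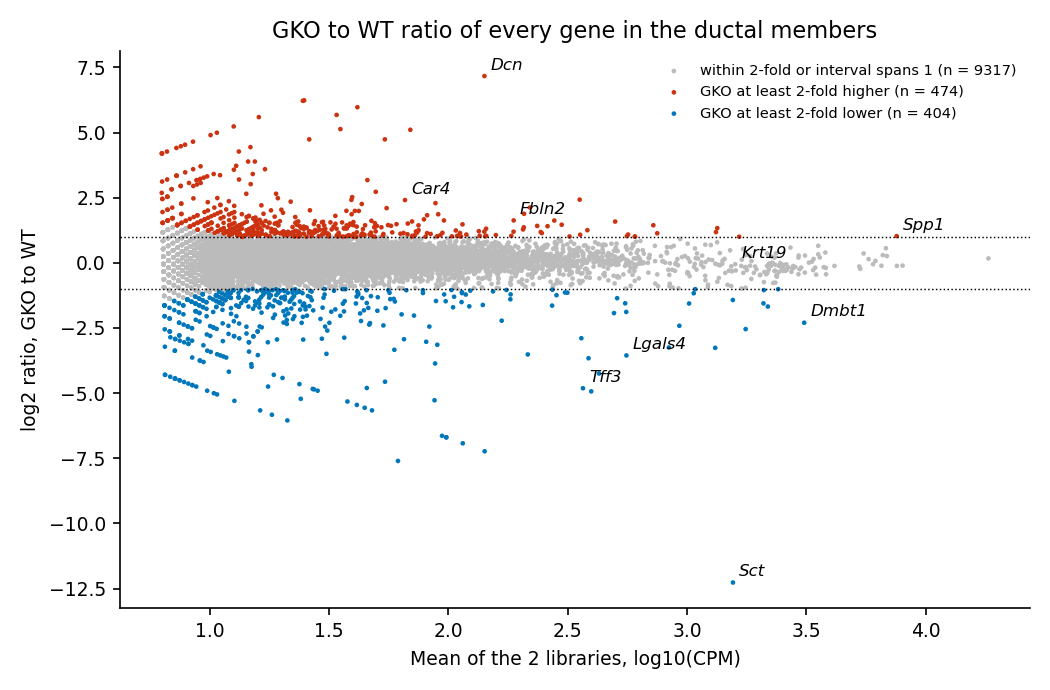
Log2 ratio of GKO to WT (y axis) against the mean level of both libraries as log10(CPM) (x axis) for 10195 genes of the ductal members, with genes past the 2-fold rule coloured and dotted lines at 2-fold. Genes without a UMI in 1 library are drawn at a floor of 3 counts, 474 genes are coloured as higher and 404 as lower, and Sct, Dmbt1, Lgals4 and Tff3 lie low while Dcn lies high.

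Genes higher in the GKO members, chosen by a rule that left out markers of other lineages and genes held mostly by 1 cell, were led by Car4, a membrane-bound carbonic anhydrase. Car4 had 20.8 CPM in WT and 110.7 in GKO, a log2 ratio of 2.41 (1.86 to 3.00), and was found in 16.9% and 41.8% of members. Limch1, an activator of non-muscle myosin, had 15.0 and 71.7 CPM (log2 ratio 2.26), and Spock3, a matrix proteoglycan, 16.3 and 64.8 (1.99). 8430408G22Rik had 88.5 and 326.5 CPM (1.88), Fads3 16.9 and 61.7 (1.87), the nuclear receptor gene Nr4a2 35.8 and 127.1 (1.83), and Ehd2, a caveolar ATPase, 15.0 and 52.2 (1.80). Pdpn, Fbln2 and Tgfb2, a surface mucin, a matrix glycoprotein and a growth factor, had log2 ratios of 1.67, 1.63 and 1.63. Fbln2 was found in 24.7% of WT and 74.5% of GKO members, and Pdpn in 22.1% and 60.2%. Several of these genes stood higher in other cells than in the members, some in both libraries and some in WT only. In endothelial cells (no Epcam, at least 5 UMIs over Pecam1, Plvap, Kdr and Cdh5) Car4 was at 362.8 CPM in WT and 366.2 in GKO, Limch1 at 110.3 and 122.6 and 8430408G22Rik at 597.9 and 835.7. Ehd2 was at 172.8 and 201.3 CPM there and at 146.4 and 160.9 in stromal cells. Fbln2 was at 110.2 and 188.4 CPM in stromal cells, Pdpn at 75.8 and 90.5, Tgfb2 at 76.8 and 68.0 and Fads3 at 44.6 and 43.2. Stromal levels of Fbln2, Pdpn, Tgfb2 and Fads3 were above those of the members in WT only. GKO members had these genes at 283.7, 120.2, 144.7 and 61.7 CPM, above the GKO stromal cells. Endothelial markers themselves summed to 28.6 CPM in WT and 26.4 in GKO members, and stellate and fibroblast markers to 275.3 and 1108. The part of stromal RNA in these ratios was not tested.

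Genes lower in the GKO members were led by Lgals4, a galectin of mucosal epithelium, at 1027 CPM in WT and 87.5 in GKO, a log2 ratio of -3.55 (-3.81 to -3.30). Oit1 followed at 140.6 and 25.8 CPM (-2.45), then Phlda3, a p53 target that restrains Akt, at 78.1 and 15.7 (-2.31), and Dmbt1 at 5148 and 1047 (-2.30). Abhd2 had a log2 ratio of -2.23, the cytochrome P450 gene Cyp2s1 -2.02, cytidine deaminase Cda -1.94, Ssfa2 -1.88, Pmaip1, which encodes the BH3-only protein Noxa, -1.71, and the sulfotransferase gene Sult1c2 -1.67. Lgals4 was found in 53.2% of WT and 20.4% of GKO members and Dmbt1 in 59.7% and 25.5%. Some ratios changed without the members holding 3 or more UMIs of stromal, endothelial or immune markers. These markers include Sparc, a leading gene of cluster 1, and 32 WT and 25 GKO members were left. A change in the mix of clusters cannot be told apart there from the removal of RNA of other cells. In that setting Lgals4 had -1.99, Oit1 -1.15, Dmbt1 -0.33 and Sult1c2 0.11.

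Many of these ratios were smaller or of the other sign within a cluster, where a ratio is given only for genes with a UMI in each library and 20 in all. Among the 404 lower genes, 89 had 20 UMIs within cluster 1, and 18 of them were past the 2-fold rule there, while 190 had 20 UMIs within cluster 2 and 28 were past it. Of the 474 higher genes, 410 had 20 UMIs within cluster 1 and 70 were past the rule, and 63 had 20 UMIs within cluster 2 and 3 were past it. The ratio had the same sign as over all members in 360 of those 410 higher genes and 20 of those 63. Among the lower genes the sign was the same in 67 of the 89 within cluster 1 and 118 of the 190 within cluster 2. Cluster 1 on its own had 168 of 8320 genes higher (2.02%) and 129 lower (1.55%), and cluster 2 had 252 of 5764 higher (4.37%) and 308 lower (5.34%), the latter resting on 9 GKO members. Lgals4 had a log2 ratio of -0.52 (-0.80 to -0.26) within cluster 2, and Oit1 -0.75 (-2.22 to 0.92) and -0.10 (-0.74 to 0.48) within clusters 1 and 2. Dmbt1 had log2 ratios of 0.32 (-0.17 to 0.85) within cluster 1 and 0.30 (0.22 to 0.38) within cluster 2. Fbln2 had -0.015 and Pdpn -0.038 within cluster 1, and cluster 2 held 26 and 9 of their UMIs in WT and 0 in GKO. Car4 and Limch1 had 1.38 and 1.14 within cluster 1, but 12 and 6 UMIs in WT and 0 in GKO within cluster 2. Phlda3 (-1.50 and -1.43) and Cyp2s1 (-1.05 and -1.30) were past the rule as lower within both clusters, and Abhd2 had -1.29 (-2.52 to 0.01) and -1.52 (-3.43 to -0.10). The clusters had a different weight in the 2 libraries, and with 1 library each genotype and that weight cannot be told apart.

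**Figure D4:**
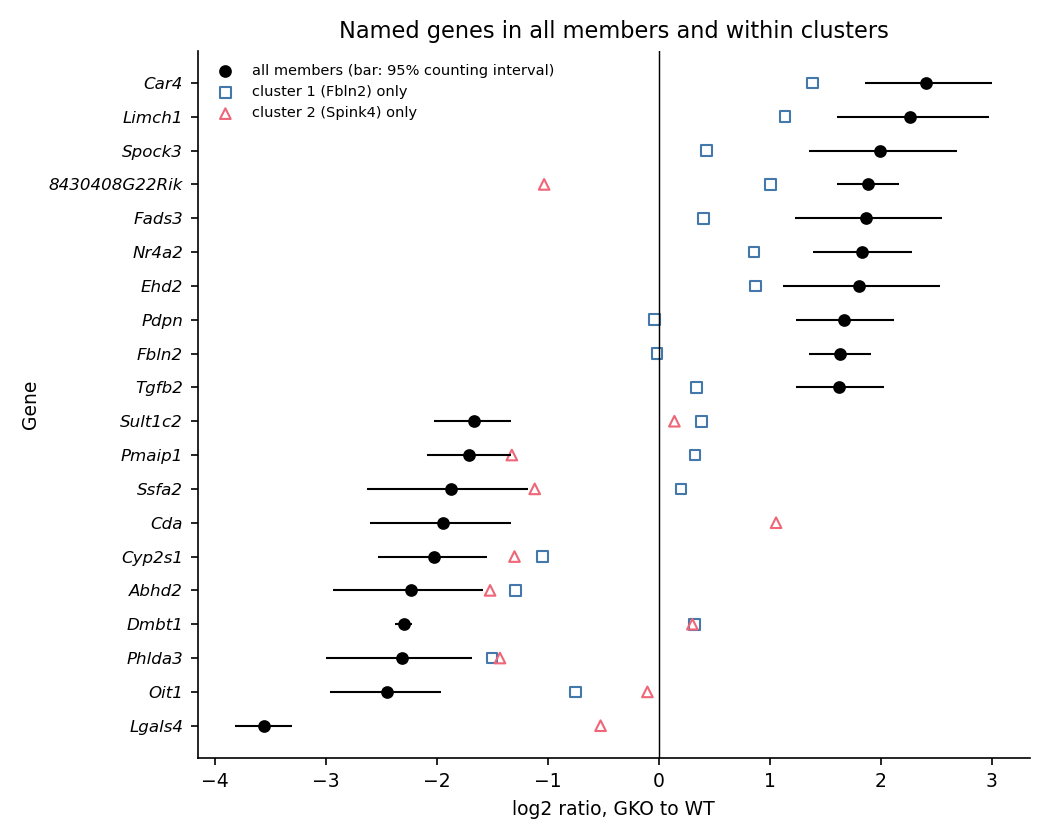
Log2 ratio of GKO to WT for the 10 genes named as higher and the 10 named as lower in GKO, over all members (black, with 95% counting intervals), within cluster 1 (squares) and within cluster 2 (triangles, only where each library had a UMI and both had 20). Dmbt1 and Sult1c2 lie at negative ratios over all members and at positive ones within both clusters, while Oit1, Phlda3, Abhd2 and Cyp2s1 lie below 0 in all 3.

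Only 4 genes were past the 2-fold rule as higher within both cluster 1 and cluster 2, and 6 as lower, of 5582 with 20 UMIs in each. These genes are named after their values were seen. On their own, clusters 1 and 2 had 2.02% and 4.37% of genes higher and 1.55% and 5.34% lower. Unrelated calls would also share some genes, so no agreement between the clusters is read from the overlap. The 4 were Ecm1, C3, Gss and Cept1, and C3, the central complement component, had log2 ratios of 1.91 (1.10 to 2.84) and 1.81 (1.42 to 2.19). None of the 4 was past the rule over all members. C3 was at 118.4 and 176.2 CPM over all members against 675.5 and 1074 in stromal cells, and Ecm1 at 54.0 and 44.7 against 413.3 and 499.6. In cluster 1 the fibroblast genes Dcn and Col3a1 had 1 and 2 UMIs in WT and 447 and 165 in GKO, and their part in these ratios was not tested. The 6 were Edn2, Phlda3, Wfdc18, Rnf213, Thbs1 and Cyp2s1. Thbs1, the matrix protein thrombospondin 1, had 275.3 CPM in WT and 59.1 in GKO over all members, with a log2 ratio of -1.09 in cluster 1 and 213 UMIs in WT against 4 in GKO in cluster 2. Wfdc18 had -1.22 (-1.52 to -0.92) and -1.57 (-1.99 to -1.17).

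The lists that follow are short, and their counts stand beside 4.65% of all genes higher and 3.96% lower, so that a list of about 20 genes with 0 to 2 past the rule lies near the background. Of 20 measured keratin and epithelial junction genes 0 were higher past the rule and 2 were lower, with a median log2 ratio of 0.06 beside 0.12 over all genes. Krt8 was at 3287 CPM in WT and 3389 in GKO, Krt18, its filament partner, at 2818 and 3425, and the claudins Cldn3 and Cldn7 at 1177 and 1288 and at 777.6 and 599.6. The 2 lower genes were Cldn2, a cation-selective claudin, at 156.2 and 71.7 CPM, and Krt20, with 57 UMIs in WT and 0 in GKO. Krt20 was found in 9.09% of WT members.

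None of 18 duct transcription factors with enough UMIs was past the rule (median 0.26). Hes1, the Notch effector, was at 1264 CPM in WT and 1765 in GKO, Nfib at 383.9 and 507.1, Ehf at 375.5 and 463.1, and Onecut2 at 451.0 and 262.4. Hhex, a homeobox gene of duct and delta cells in the islet factor list, was at 253.1 and 419.6 CPM. Neurog3, the factor that starts endocrine differentiation in the embryo, had 4 UMIs in WT and 1 in GKO.

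Among ion and water transport genes, 2 of 16 were lower and 0 higher (median -0.20). Within the 3 larger clusters 1 was lower and 0 higher. The median of the list was positive without the members holding 3 or more UMIs of stromal, endothelial or immune markers. Atp1b1, a sodium pump subunit, was at 1195 and 1549 CPM, and Kcne3 had a log2 ratio of -0.0082 (-0.29 to 0.27). Slc4a4, the basolateral sodium bicarbonate carrier, was lower in GKO, at 134.1 CPM against 57.9, a log2 ratio of -1.21 (-1.58 to -0.85), and Slc26a6, an apical chloride bicarbonate exchanger, had 20 UMIs in 5.20% of WT members and 1 UMI in GKO. Cftr, a rule gene given only as a description, had a log2 ratio of -2.11 (-3.21 to -1.14). Its WT and GKO UMIs were 9 and 9 in cluster 1, 17 and 1 in cluster 2 and 14 and 1 in cluster 3. As levels these were 27.5 and 7.01, 21.7 and 8.24, and 101.7 and 9.78 CPM. Car2, the cytosolic carbonic anhydrase, was at 89.2 and 73.0 CPM and the water channel Aqp5 at 50.1 and 69.2.

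Several receptors of the secretin and purine lists had few or no UMIs. Sctr, the secretin receptor, had 2 UMIs in WT and 4 in GKO, Adora2b 0 and 1, and P2ry4 and Casr 0 in both. P2ry2, which couples luminal ATP to calcium, had 9 and 25 UMIs and was the 1 higher gene of 5 with enough UMIs (log2 ratio 1.42, 0.28 to 2.71). Within cluster 1 its ratio was 0.42 (-1.15 to 2.43), from 4 and 21 UMIs. P2rx4, an ATP-gated channel, had 34 and 37 UMIs, in 39.0% and 29.6% of members, and Chrm3, a muscarinic receptor, 13 and 11. Ezr, the apical membrane linker ezrin, was at 415.2 and 573.8 CPM.

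Among secreted and mucosal genes 8 of the 16 that reached 20 UMIs were lower in GKO and 1 was higher, with a median of -1.15 beside 0.12 over all genes. Without the members holding 3 or more UMIs of stromal, endothelial or immune markers that median was -0.019. Clu, the chaperone clusterin, was at 5475 CPM in WT and 6052 in GKO and was found in 92.2% and 100% of members. Spp1 was the higher gene, with a log2 ratio of 1.03 (0.99 to 1.07), but of 0.18, 0.27 and 0.65 within clusters 1, 2 and 3. The lower genes included Tff3, a trefoil peptide, at 707.4 and 25.2 CPM. It was found in 29.9% of WT and 8.16% of GKO members, and 556 of its 1087 WT UMIs lay in 1 member, as did 52.5% of its 40 GKO UMIs. Other lower genes were Pigr, which carries IgA across epithelium, at 411.9 and 132.1, and Agr2, a disulfide isomerase of mucus cells, at 164.6 and 11.3. Within cluster 2 the 14 listed genes with enough UMIs had a median of 0.73, beside -0.087 over all genes there, with Lcn2 at 4549 CPM in WT and 22884 in GKO and Spink4, outside the list, at 2791 and 8913. Lcn2 was found in 17 of the 34 WT members of cluster 2 and in all 9 GKO members.

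**Figure D5:**
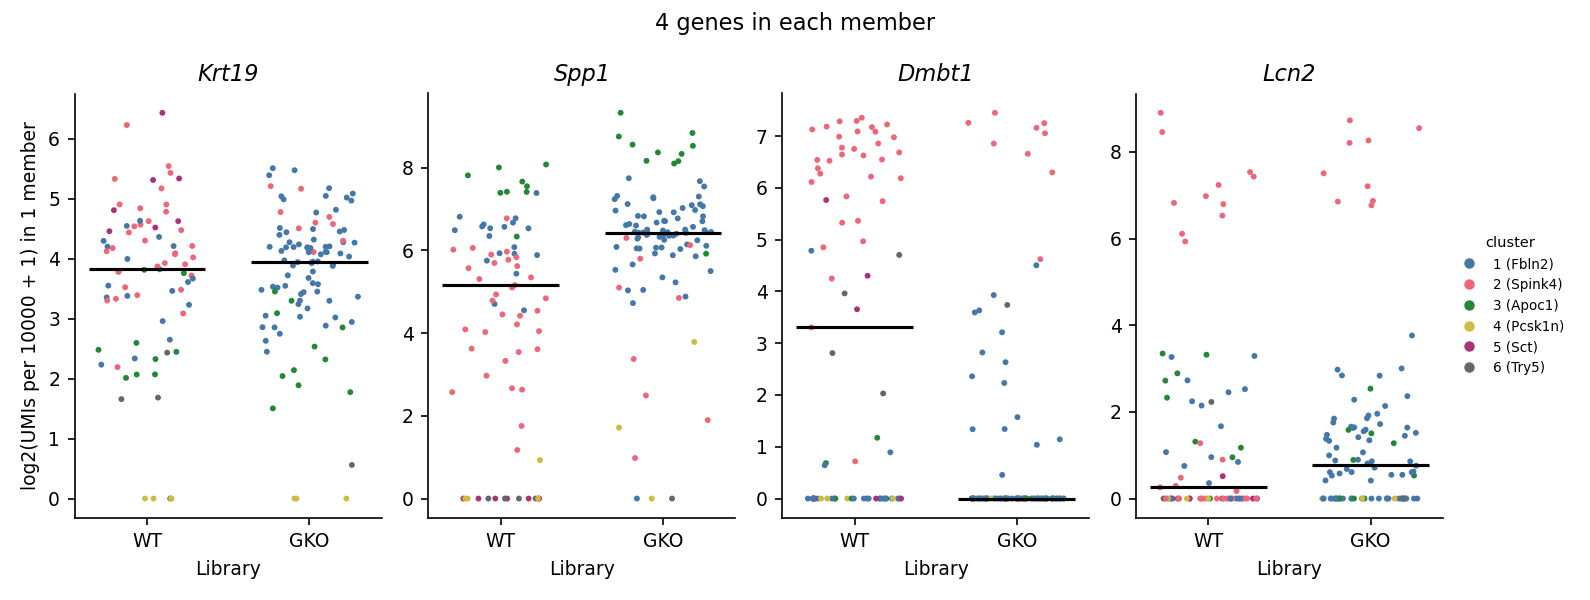
Level of Krt19, Spp1, Dmbt1 and Lcn2 in each member as log2(UMIs per 10000 + 1), by library, coloured by cluster, with black lines at the median of each library. The highest values of Dmbt1 and Lcn2 are in cluster 2, the GKO median of Spp1 (85.1 per 10000) lies above that of WT (34.7), and the medians of Krt19 (13.2 and 14.5) are close.

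Cilium and polycystic kidney genes had 2 of 13 higher and 0 lower (median 0.38). Pkhd1, which encodes fibrocystin, was at 71.6 CPM in WT and 147.2 in GKO, and Bicc1 at 401.5 and 806.6, with log2 ratios of 1.04 and 1.01 over all members and 0.023 and -0.010 within cluster 1. Dcdc2a was at 199.8 and 321.5 CPM. Of 8 Notch pathway genes 2 were higher, Notch1 at 30.6 and 64.2 CPM and its ligand Jag1 at 15.6 and 41.5. Within cluster 1 Notch1 had a log2 ratio of 0.29 (-0.46 to 1.11) and Jag1 1.00 (-0.13 to 2.38). Of 16 genes of YAP targets and matrix adhesion 2 were higher, Crim1 and Lamb1, which had log2 ratios of 0.051 and 0.065 within cluster 1, while the leading member Cyr61 was at 1138 and 1159 CPM (log2 ratio 0.03). Of 13 surface and progenitor genes 3 were higher and 2, Tspan1 and Aldh1b1, lower. Anxa5 was at 809.5 and 1835 CPM and Anxa3 at 401.5 and 809.7, with log2 ratios of 0.051 (-0.074 to 0.18) and 0.30 (0.11 to 0.50) within cluster 1. The third was Nkx6-1, a homeobox gene of beta cells and pancreatic progenitors, at 10.4 and 42.2 CPM, found in 15.6% and 43.9% of members. Lgr5 had 1 UMI in WT and 0 in GKO.

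Among ErbB and growth factor genes 3 of 15 were higher and 1 lower (median 0.59). Hbegf, an EGF family ligand, was at 949.4 CPM in WT and 1071 in GKO, while Areg, another such ligand, was the lower gene at 35.1 and 6.92. Gdf15, a stress-responsive TGF-beta family member, was at 35.1 and 105.7 CPM, in 15.6% and 45.9% of members, and Tgfb2 and Igf1r were the other higher genes. Within cluster 1 Tgfb2 had a log2 ratio of 0.34 (-0.15 to 0.85), Igf1r -0.049 (-0.61 to 0.55) and Gdf15 3.06 (1.67 to 4.96). Of 12 chemokine and acute phase genes 0 were higher and 4 lower. Nfkbia, the NF-kB inhibitor, was at 979.4 and 1694 CPM, and Cxcl2 was lower at 263.6 CPM in WT, with a log2 ratio of -1.40, but of 2.49 (1.33 to 3.96) within cluster 1. Within cluster 2 Cxcl5, with 49.2% of all its WT UMIs in 1 member, was at 573.3 CPM in WT and 4761 in GKO. Antigen presentation and interferon genes had 1 of 18 higher, Irf1 at 136.0 and 419.6 CPM, and 1 lower, Irf7, while H2-K1, a class I heavy chain, was at 1227 and 1323. The class II chain partner Cd74 was at 516.7 and 342.3 CPM.

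Immediate early genes, which respond within minutes to stimulation or tissue dissociation, summed to 38016 CPM in WT and 51771 in GKO members over 19 genes. The same sum was 2969 and 4273 CPM in endocrine cells and 22238 and 19705 in stromal cells. Fos was at 5505 CPM in WT and 8126 in GKO, Jun at 5939 and 7287 and Atf3 at 4813 and 6180. Of the 19 genes 3 were higher, Egr2, Ier3 and Klf4, and 0 lower, with a median of 0.51. The sign differed between clusters, with a median of 0.46 within cluster 1 and -1.89 over 18 genes within cluster 2, where Fos was at 6554 CPM in 34 WT and 1820 in 9 GKO members. Heat shock and ER stress genes had 0 of 17 past the rule (median -0.05), with Hspa1a at 4015 and 2935 CPM. Of 17 metallothionein, antioxidant and glucocorticoid-responsive genes 3 were higher, Cat, Tsc22d3 and Hmox1, and Mt2 was lower, and 71.1% of the GKO Hmox1 UMIs lay in 1 member. Ribosomal protein genes summed to 167624 CPM in WT and 132559 in GKO, with 0 of 82 higher and 3 lower (median -0.32, and -0.09 within cluster 1).

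S phase and mitosis genes summed to 338.4 CPM in WT and 428.5 in GKO members, led by Stmn1, and 44 of 77 WT and 60 of 98 GKO members held at least 3 UMIs of the list. Of 10 S phase and mitosis genes with enough UMIs 2 were higher in GKO and 1 lower. The higher ones, Birc5 and Cenpf, had 96.6% and 89.7% of their GKO UMIs in 1 member. Mki67 had 4 UMIs in 3 WT members and 13 in 2 GKO members, and 76.9% of its GKO UMIs lay in 1 member.

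Markers of other cell types were counted beside these results. Acinar markers summed to 14762 CPM in WT and 9164 in GKO members, led by Ctrb1, and to 1028 and 286.5 CPM in the 3 larger clusters. Over all GKO members 96.9% of the acinar marker UMIs lay in 1 member, which was in cluster 6. Stellate and fibroblast markers were led by Sparc, with 6 of 8 genes higher and 2 lower, and 69.1% of the GKO sum lay in 5 members. Sparc is also among the leading genes of cluster 1. Dcn, a proteoglycan of fibroblasts, had 3 UMIs in WT and 447 in 7.14% of the GKO members, while Acta2 and Pdgfrb had 0 in WT and at most 2 in GKO. Immune markers summed to 27.3 and 166.1 CPM, led by Lyz2, 84.1% of the GKO sum lay in 1 member, and 5 of 14, B and T cell genes among them, were at 0 in both. Endothelial markers were led by Egfl7, with no gene at 0 in both. Endocrine granule genes, led by Ttr, summed to 6745 and 4351 CPM. Reg family genes, led by Reg1 in WT and by Reg2 in GKO, summed to 4081 and 643.6 CPM. In WT 82.0% of the Reg UMIs lay in 5 members, and in GKO 89.25% lay in 1 member. Mesothelial markers summed to 408.7 and 337.9 CPM, led by Igfbp5 with 411 and 289 UMIs. Of 6 with enough UMIs 3 were higher in GKO, Wt1 with 0 and 24 UMIs, Upk3b with 13 and 39 and Nkain4 with 19 and 54. Tuft markers summed to 31.9 and 62.9 CPM, with 6 of 10 at 0 in both libraries. Dclk1 held 46 of their 49 UMIs in WT and 94 of 100 in GKO, and was at 50.5 and 67.5 CPM in stromal cells. Glial markers summed to 37.1 and 18.3 CPM. With an estimate of free RNA subtracted, 484 genes were higher and 413 lower in GKO. Without the members holding 3 or more UMIs of stromal, endothelial or immune markers, 282 were higher and 328 lower.

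At full depth the number of genes per member had overlapping intervals in the 2 libraries. The median was 3881 in WT (95% interval of the median 3732 to 4518) and 4174.5 in GKO (3754 to 4537). Thinned to 2000 UMIs, GKO members had more, at 1142 genes (1115 to 1160) against 1062 (1042 to 1079) in WT, without overlap. Endocrine cells had 733.5 in WT and 819 in GKO at that depth, and stromal cells 1046 and 1068. The artificial doublet score called 13 of 77 WT members and 2 of 98 GKO members. Without them 480 genes were higher and 322 lower in GKO.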

How the data were processed

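The authors sorted live islet cells, made 3′ gene expression libraries on the 10x Genomics Chromium platform and deposited for each library a gene by barcode table of raw UMI counts, produced per the labels with Cell Ranger on mouse build mm10. Reads were down-sampled between libraries where required, per the study's methods. Free RNA was not removed here. The study left duct and acinar clusters out of its later steps.

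Here barcodes were kept by the stated limits, members' UMIs were summed per library and divided by their total to give CPM, and ratios of GKO to WT received exact Poisson 95% intervals. A sum of 0 was put at a floor of 3 counts. Shares received exact Clopper-Pearson 95% intervals. A gene was called past the fold at a ratio of at least 2 or at most 1 in 2 with an interval leaving out 1. These intervals cover counting error only. Members and gene lists were chosen with earlier results of these data known. Genes named between the libraries were the 10 highest and the 10 lowest ratios among genes that reached 50 CPM in either library, had 20 UMIs in both, were found in 10% of the members of both and had no member with over 20% of the UMIs, leaving out hormone, acinar, Reg, stellate, endothelial, immune and glial genes. Against other cells they were the 15 with the largest smallest fold at 100 CPM or more, and from each list its most abundant members, some of which are not reported here. Cyr61 and Ctgf are the symbols in the files for Ccn1 and Ccn2. Doublets were scored against artificial ones and the top 7.6% called, not removed. Clusters came from Ward linkage on 10 principal components. Python 3.11.15, scipy 1.17.1 and edgeR 4.0.16 (TMM factors only) were used, and the call rule was tested on simulated data.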

Additional observations from a re-analysis of the deposited data

Results flagged for a closer look

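Named genes are listed here where the log2 ratio of GKO to WT in endocrine or stromal cells had the other sign than in ductal members, a size of at least 0.5 and a counting interval that left out 0. These differences between groups were not tested, since each genotype is 1 library. By that rule 3 of the 20 named genes stood out, and others had the other sign with a smaller ratio or an interval that held 0. Car4 had 2.41 in ductal members and -1.01 in endocrine cells. Its endocrine level was low, at 1.21 CPM in WT and 0.599 in GKO, in 0.965% and 0.563% of endocrine cells. Nr4a2 had 1.83 in ductal members and -0.62 in stromal cells. Its ratio within cluster 1 was 0.859 (0.284 to 1.485), and cluster 2 held 19 of its UMIs in WT and 0 in GKO. Pmaip1 had -1.71 in ductal members, 1.07 in endocrine and 2.23 in stromal cells, with 0.33 (-0.58 to 1.36) within cluster 1 and -1.32 (-2.26 to -0.52) within cluster 2. In WT and GKO it was also low outside the members, at 1.52 and 3.18 CPM in endocrine and 3.10 and 14.5 in stromal cells.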

How the results depend on the processing

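With 1 library per genotype no replicate could be left out, and no difference between genotypes was tested. No paired analysis was possible because the groups share only 1 replicate number and no result comes from a test. Without members holding 3 or more UMIs of stromal, endothelial or immune markers, which include Sparc, 32 WT and 25 GKO members were left, 0.451% and 0.394% of barcodes, 282 genes were higher, members had a median of 3514 and 3607 genes, and Sult1c2 turned to 0.11. In the same setting Dmbt1 had -0.33, Cda -0.89, Cyp2s1 -0.91, Ssfa2 -0.94, Pmaip1 -1.12, Oit1 -1.15, Phlda3 -1.16 and Lgals4 -1.99, each nearer 0 than over all members, while Car4 had 3.71 and Fbln2 2.64, and 6 of the 10 higher genes (Limch1, Spock3, Fads3, Ehd2, Pdpn and Tgfb2) were given no ratio there, with 0 UMIs in a library or under 20 in all. Medians of 7 lists moved there, to -0.019 for secreted and mucosal, 0.44 for ion and water transport, 0.60 for duct transcription factor, 0.67 for chemokine, -0.80 for antigen presentation, 0.74 for immediate early and -0.10 for ribosomal protein genes. With at least 100 UMIs over both libraries 136 genes were higher and 106 lower. Thinning to 2000 UMIs gave medians of 1062 and 1142 genes and thinning to 5000 UMIs 2055 and 2214, fewer by construction. The remaining planned settings kept the counts within 1.5 times and the shares of barcodes within their intervals. Of 288 planned list medians 14 moved, those above, that of ribosomal protein genes with TMM scaling (-0.43) and the median of all genes in 6 settings. Thinning lowered 20 of 24 shares of members with a UMI of a rule gene beyond their intervals.

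Alternatives chosen after seeing the data kept parts of the members. Cluster 1 only gave 0.268% of WT and 1.17% of GKO barcodes, 168 higher and 129 lower genes, and turned Pdpn to -0.038, Fbln2 to -0.015, Dmbt1 to 0.32, Ssfa2 to 0.20, Pmaip1 to 0.33 and Sult1c2 to 0.38. Cluster 2 only gave 0.479% and 0.142%, 252 higher genes, a median of 3623 genes per GKO member, and turned 8430408G22Rik to -1.03, Dmbt1 to 0.30, Cda to 1.06 and Sult1c2 to 0.14. The cause was not tested. Of 314 planned values for the named genes 296 stayed within the interval, 17 moved and 1 turned, and genes with 0 UMIs in a library or under 20 in all were given no ratio.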

Other observations

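In the GKO library 276 of the 280 Ghrl UMIs lay in 1 barcode of 16296 UMIs, whose barcode sequence is not among the 18 shared with the WT library. Ghrl made up 1.69% of the UMIs of that barcode, and it is not a member of the ductal set.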
